A study of Mus musculus with 7 samples.

Results

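The 5 genes leptin (Lep), Aoc3, Npr3, Lgals12 and Ehd2 were taken out of 9294 genes with a value on Affymetrix arrays of mouse fat. They were chosen by their depot difference on these same arrays, which was among the largest measured, so that difference is given here as a description and without a test. Paracardial fat (pCF), which lies beside the heart, was compared with intra-abdominal fat (iVF) of wild-type C57 male mice. There were 4 paracardial and 3 intra-abdominal arrays, and no treatment is named for either depot. The labels number the samples of each depot as biological replicates, while the age of the mice and whether each sample came from its own animal are not stated there, so a p-value measures only the spread between these samples. A value is the log2 expression that the authors deposited for a probe on an array, and a difference is the paracardial mean minus the intra-abdominal mean. Each of the 5 genes had 1 probe, so no second probe could be set beside it. None lay within 0.1 of the highest value of an array, where values piled up.

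Leptin is the hormone by which fat cells report their energy store to the brain. Npr3 encodes the natriuretic peptide clearance receptor, which takes up the peptides released by the heart and so limits their lipolytic signal through the receptor Npr1. Aoc3 encodes a copper amine oxidase (vascular adhesion protein) on the surface of fat cells and of vascular smooth muscle. Lgals12 encodes galectin-12, a sugar-binding protein of the lipid droplet that restrains lipolysis. Ehd2 encodes an ATPase that holds caveolae, the flask-shaped pits that crowd the fat cell membrane, at the cell surface.

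The promoter windows below show the sequence at the start of members chosen for their depot difference, as far as the RefSeq table (GRCm38.p6) holds them. Lep, Npr3 and Ehd2 had a window there, and Aoc3 and Lgals12 had none. Each window holds 250 bases before the gene start and 50 after it, 5′ to 3′ on the gene's strand. Lep is at chr6:29059971-29060270 on the + strand, Npr3 at chr15:11907322-11907621 and Ehd2 at chr7:15967486-15967785, both on the - strand. Capitals mark matches, on either strand, to the searched motifs, which were the TATA box TATAAA, the CCAAT box, the GC box GGGCGG, the nuclear receptor half-site AGGTCA, the C/EBP palindrome TTGCGCAA with its looser form TTGCNNAA, and the E-box CACGTG.
Lep: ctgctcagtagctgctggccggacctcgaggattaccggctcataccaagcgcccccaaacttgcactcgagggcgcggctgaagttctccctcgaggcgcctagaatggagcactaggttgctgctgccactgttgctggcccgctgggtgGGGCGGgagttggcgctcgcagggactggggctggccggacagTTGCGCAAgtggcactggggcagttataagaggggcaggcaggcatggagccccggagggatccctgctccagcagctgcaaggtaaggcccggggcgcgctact
Npr3: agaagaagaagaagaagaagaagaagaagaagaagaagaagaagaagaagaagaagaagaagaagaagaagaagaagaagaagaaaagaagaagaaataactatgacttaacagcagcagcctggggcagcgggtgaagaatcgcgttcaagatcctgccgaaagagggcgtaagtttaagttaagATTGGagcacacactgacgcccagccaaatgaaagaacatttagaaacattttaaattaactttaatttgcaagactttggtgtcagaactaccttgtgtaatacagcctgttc
Ehd2: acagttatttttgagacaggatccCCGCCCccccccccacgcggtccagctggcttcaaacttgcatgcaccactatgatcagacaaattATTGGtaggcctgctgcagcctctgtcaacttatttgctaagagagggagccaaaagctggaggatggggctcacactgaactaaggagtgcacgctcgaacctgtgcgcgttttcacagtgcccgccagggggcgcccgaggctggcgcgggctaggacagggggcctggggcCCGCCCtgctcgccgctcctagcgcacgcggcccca

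The Lep window held the palindrome TTGCGCAA, a binding site of the C/EBP factors of fat cells, at bases 196 to 203. That motif was found in 0.183% of 32851 windows of the same length. Every TTGCGCAA is also a TTGCNNAA, which 10.8% of windows held. Lep also held the GC box GGGCGG at bases 153 to 158 and Ehd2 held it in the other orientation at bases 25 to 30 and 265 to 270, as did 35.7% of windows in either orientation. CCAAT lay in the other orientation, printed as ATTGG, at bases 187 to 191 of Npr3 and 91 to 95 of Ehd2, with 37.4% of windows holding it. No window of these members held TATAAA (13.6% of all windows), AGGTCA, the half-site bound by receptors such as PPAR gamma (16.3%), or CACGTG (7.15%). Only exact matches were counted. The Lep window holds TATAAG, which differs from TATAAA in its last base, so a TATA box there is not excluded. No motif was found in all members that had a window.

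All 5 genes were far lower in paracardial fat, and no paracardial array reached the lowest intra-abdominal value of any of them. Every paracardial array lay below every intra-abdominal array in 8.78% of all genes, and since the members were chosen on this contrast nothing is read from their share. On paracardial arrays 1 to 4 leptin had log2 values of 6.30, 5.56, 6.67 and 9.26. Its values on intra-abdominal arrays 1 to 3 were 15.03, 14.95 and 16.45. Array 4 was the high one in paracardial fat and array 3 in intra-abdominal fat, and 5.69 log2 units separated the nearest arrays of the depots. The means were 6.95 ± 1.61 (SD, n = 4) and 15.48 ± 0.84 (SD, n = 3), which differ by -8.53 (standard error 0.91).

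Npr3 had values of 5.99, 6.72, 7.17 and 8.77 in paracardial fat and of 15.43, 15.36 and 17.10 in intra-abdominal fat. It showed the same high arrays as leptin and had the smallest paracardial spread of the members, with means of 7.16 ± 1.18 (SD, n = 4) and 15.96 ± 0.99 (SD, n = 3). Its difference was -8.80 with a standard error of 0.74.

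Aoc3 had the largest difference of all 9294 genes in the direction of lower paracardial values, -9.40 with a standard error of 0.89. Its paracardial values were 5.56, 5.75, 8.57 and 8.67, and its intra-abdominal values 16.42, 16.46 and 16.73. Arrays 1 and 2 of paracardial fat lay together, well below arrays 3 and 4, while the intra-abdominal arrays were within 0.32 of each other. The means were 7.14 ± 1.71 (SD, n = 4) and 16.54 ± 0.17 (SD, n = 3).

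Lgals12 had values of 5.40, 5.65, 7.97 and 8.54 in paracardial fat and of 14.59, 16.25 and 15.85 in intra-abdominal fat. Paracardial arrays 1 and 2 were again the low ones, and intra-abdominal array 2, not 3, was the highest. The means were 6.89 ± 1.60 (SD, n = 4) and 15.56 ± 0.87 (SD, n = 3), which differ by -8.67 (standard error 0.91).

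Ehd2 had values of 5.31, 5.51, 7.63 and 9.64 in paracardial fat and of 15.00, 14.99 and 16.58 in intra-abdominal fat. It had the widest paracardial range of the members, 4.33, and the smallest gap between depots, 5.35. The means were 7.02 ± 2.04 (SD, n = 4) and 15.52 ± 0.92 (SD, n = 3), which differ by -8.50 (standard error 1.12).

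**Figure D1:**
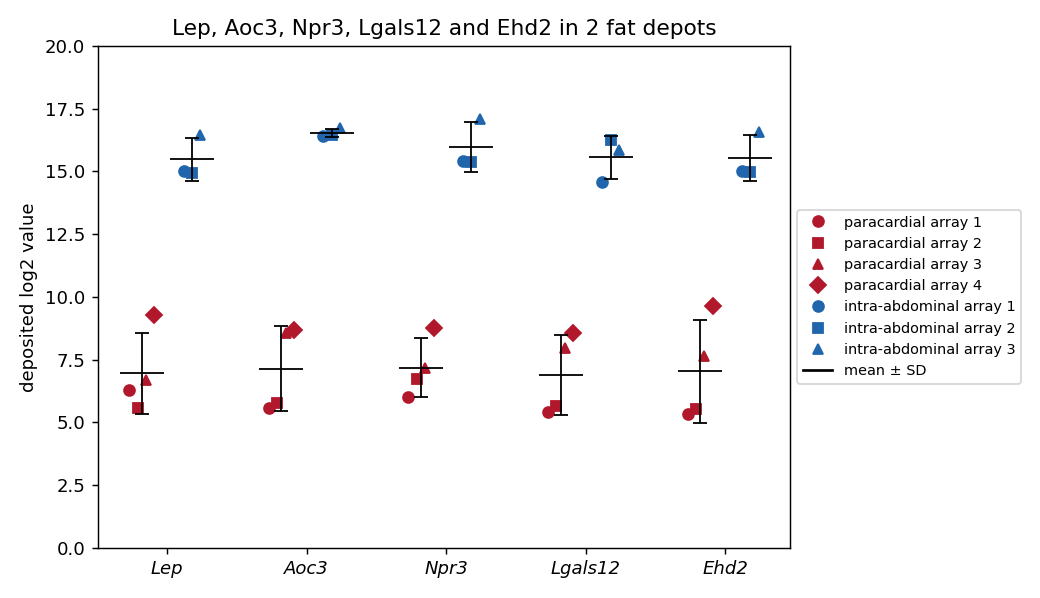
Deposited log2 value (vertical axis) of the 5 genes on each array, with paracardial arrays in red, intra-abdominal arrays in blue, and black bars for the mean and SD of each depot. All paracardial values lie between 5.31 and 9.64 and all intra-abdominal values between 14.59 and 17.10.

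In the order of all genes by difference, Aoc3, Npr3 and Lgals12 held ranks 1 to 3 and Lep and Ehd2 ranks 7 and 8. The other genes among the 10 lowest were the matrix protein gene Prelp (-8.63), the acute phase inhibitor gene Serpina3n (-8.58), the desaturase family gene Fads3 (-8.56), Gm2399 (-8.47) and the Wnt receptor gene Fzd4 (-8.46). The 5 differences of the members span less than 1 log2 unit, and their 95% confidence intervals overlap, from -11.5 to -7.27 for Aoc3 and from -11.2 to -5.83 for Ehd2. The members were measured on the same arrays and were not tested against each other, so no order among them is claimed. Array 4 of paracardial fat and array 3 of intra-abdominal fat shared a higher ceiling and lower low values than the other 5 arrays. Within those 5 arrays the differences were -8.81 for Lep, -9.81 for Aoc3, -8.77 for Npr3, -9.08 for Lgals12 and -8.84 for Ehd2. Between the 2 arrays of the higher ceiling they were -7.20, -8.06, -8.33, -7.31 and -6.94 in the same order.

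The members fell into different patterns across the 7 arrays when each gene was centred on its own mean and compared by the root mean square difference. Leptin was most like Npr3 (0.52) and Ehd2 (0.54), then the droplet coat protein gene Plin4 (0.60). Npr3 was most like leptin, then Serpina3n (0.53) and Plin4 (0.56). Aoc3 was most like Lgals12 (0.58), then Prelp (0.70) and Fzd4 (0.73). Lgals12 was most like Fzd4 (0.51) and Gm2399 (0.53), with Aoc3 next. Ehd2 was most like Prelp (0.21) and the basement membrane gene Nid1 (0.34), closer than any member to another, then Gm2399 (0.47). Since all these genes were lower in paracardial fat by 8.13 or more, this measure mostly separates them by how arrays of the same depot differed.

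The fat identity of the samples was checked with 11 measured adipocyte markers. Of these, 7 were lower in paracardial fat at a limma adjusted p under 0.05, against 2.91% of all genes. None was higher, against 6.25% of all genes, and 4 did not pass, with a median difference of -6.97. The count of lower markers was 2 when paracardial array 1 or intra-abdominal array 2 was left out and 4 when paracardial array 2 or intra-abdominal array 3 was. With both paracardial arrays 1 and 2 left out it was 0, and the median difference was -4.81. On paracardial arrays 1 to 4 the marker medians were 5.91, 5.95, 9.92 and 9.73 (log2). The intra-abdominal medians were 14.63, 14.41 and 15.89. Adiponectin (Adipoq), which defines fat cells, had values of 5.18, 5.53, 9.92 and 9.73 in paracardial fat and of 11.74, 12.71 and 13.45 in intra-abdominal fat. Adipocyte markers were thus low on paracardial arrays 1 and 2, the arrays on which all 5 members were lowest. In bulk tissue, fewer fat cells and less RNA of a gene per fat cell cannot be told apart.

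The members were farther below the intra-abdominal mean than most adipocyte markers on the same arrays. On paracardial array 1 the members lay 9.18 to 10.97 below their intra-abdominal means, against a median of 8.76 for the markers, and 5 of the 11 markers were farther below than leptin, the nearest member. On array 2 the members lay 9.24 to 10.78 below, against 8.66, and 3 markers passed the nearest member, Npr3. On array 3 they lay 7.59 to 8.80 below, against 5.21, and Plin4 alone among the markers (7.65) passed the nearest member, Lgals12. On array 4 they lay 5.88 to 7.86 below, against 4.41, and the markers Plin4 (6.29) and Aqp7 (6.10) passed the nearest member, Ehd2. The members were chosen for a large difference and the markers were not, so no test was made of this gap. On arrays 1 and 2 the members (5.31 to 6.72) and the marker medians (5.91 and 5.95) lay near the array medians over all probes. The distance there follows mainly from how high a gene was in intra-abdominal fat. Intra-abdominal means were 15.48 to 16.54 for the members and ran from 8.29 (Slc2a4) to 17.26 (Retn) for the markers. The gap on arrays 1 and 2 is thus not read as a larger loss in the members. Since the members were chosen on this contrast, neither is the gap on arrays 3 and 4.

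**Figure D2:**
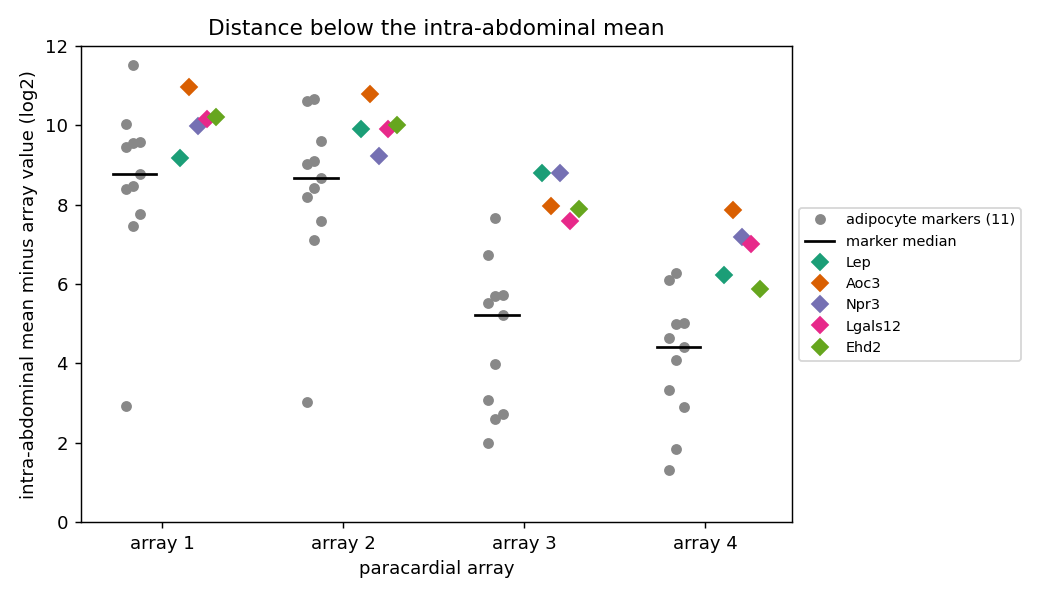
Distance below the gene's intra-abdominal mean in log2 units (vertical axis) on each paracardial array (horizontal axis), with 11 adipocyte markers in grey, their median as a black line, and the 5 members as coloured diamonds. On arrays 3 and 4 the members lie 5.88 to 8.80 below, while the marker medians are 5.21 and 4.41. The members were chosen for a large difference on these arrays, so the gap is not read as a larger loss.

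Markers of other cell types also moved with the depots. Among thymocyte and T cell markers 4 of 7 were higher in paracardial fat (median difference 4.65), and among thymic epithelial markers 4 of 7 were higher (4.42), with no marker of either list lower. Leaving out 1 array gave 0 to 6 higher T cell markers and 1 to 5 higher epithelial markers, with 0 T cell markers without intra-abdominal array 2 or paracardial array 1 or 3 and 1 epithelial marker without intra-abdominal array 2, and both medians stayed at 3.84 or above. Their summed levels, as log2 of the sum of linear values, were 16.80 to 19.79 in paracardial and 9.65 to 16.19 in intra-abdominal fat for the T cell list, and 13.87 to 15.50 against 8.24 to 10.84 for the epithelial list. Endothelial markers were lower in 2 of 5 cases (-3.01), with summed levels of 7.69 to 9.66 against 13.12 to 15.90. When intra-abdominal array 3 was left out 4 of them passed, with a median of -1.58, and 1 passed when paracardial array 1 or 2 or intra-abdominal array 2 was left out. None of 5 smooth muscle and pericyte markers passed (-0.56), with summed levels of 8.47 to 8.95 against 10.32 to 14.67. Adipocyte markers had summed levels of 9.56 to 15.11 against 18.68 to 19.63. None of 4 brown adipocyte markers passed (0.68), but they were uneven among the paracardial arrays, with medians of 5.21, 5.21, 5.93 and 8.81 against 5.24, 5.09 and 5.78. Ucp1, the uncoupling protein of brown fat, reached 13.92 on paracardial array 4, where all 5 members had their highest paracardial value, and lay at 4.36 to 6.14 on the other 6 arrays. Of 4 cell cycle genes 3 were higher (3.99), with summed levels of 12.53 to 14.76 against 7.91 to 10.18. That count was 0 when paracardial array 1 or intra-abdominal array 2 was left out, and 1 when paracardial array 2 or 3 or intra-abdominal array 3 was. No marker of macrophages (6 measured, -1.72), B cells (5, 0.61), fibroblasts and adipose progenitors (2, -1.52) or mesothelium (4, -0.24) passed. The part of these cell types in the differences of the members was not tested.

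**Figure D3:**
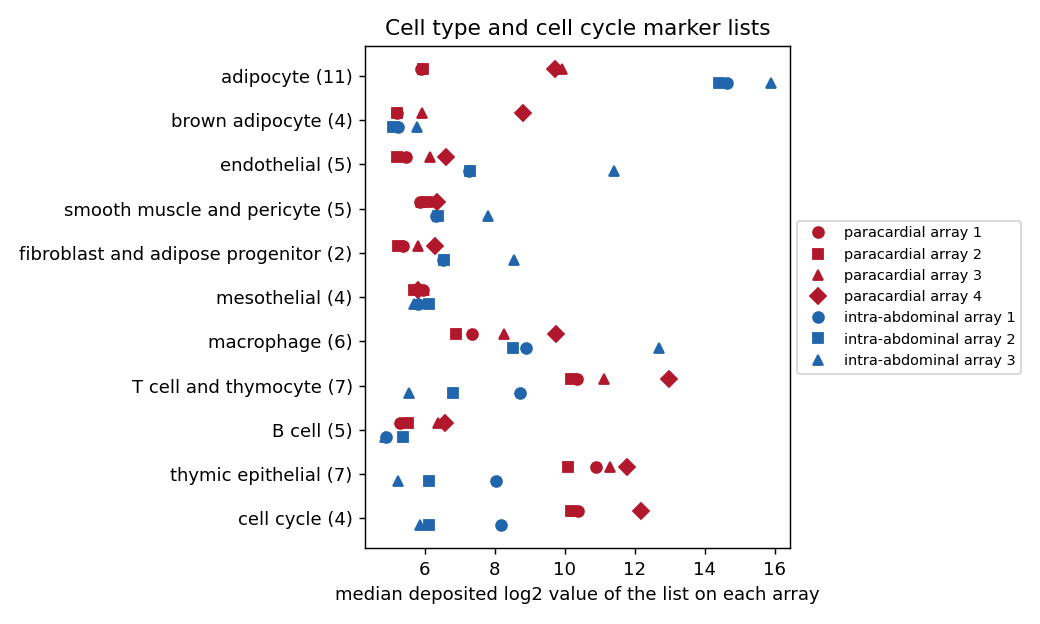
Median deposited log2 value of each marker list (horizontal axis, number of measured genes in parentheses) on each array, paracardial in red and intra-abdominal in blue. The adipocyte medians are 5.91 to 9.92 in paracardial and 14.41 to 15.89 in intra-abdominal fat, and the thymic epithelial medians run the other way.

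Partner and pathway genes of the members, which were not used to choose them, were tested in the comparison of all genes. Their lists were drawn up with earlier results of these data known, so their share is not independent of those results. Of 156 genes in 9 lists, 58 were measured, of which 16 were lower in paracardial fat, none was higher and 42 did not pass. Of the 58 genes, 4 are also adipocyte markers, and 2 of these are among the 16 lower genes. Over all 9294 genes, 2.91% were lower and 6.25% higher at a limma adjusted p under 0.05. The 58 genes had a median difference of -0.98, against 0.13 for all genes. After quantile normalization was applied again the split over all genes was 436 higher and 474 lower, and after cyclic loess 453 and 571, against 581 and 270 as deposited, while 23 and 26 of the pathway genes were lower and none higher. Leaving out paracardial array 1, 2 or 3 lowered the pathway count to 2, 4 and 8 genes, and leaving out intra-abdominal array 2 lowered it to 2, the 2 genes being Cav2 and Tshr both times. Without paracardial arrays 1 and 2 together no pathway gene passed, and 1 gene of all did.

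**Figure D4:**
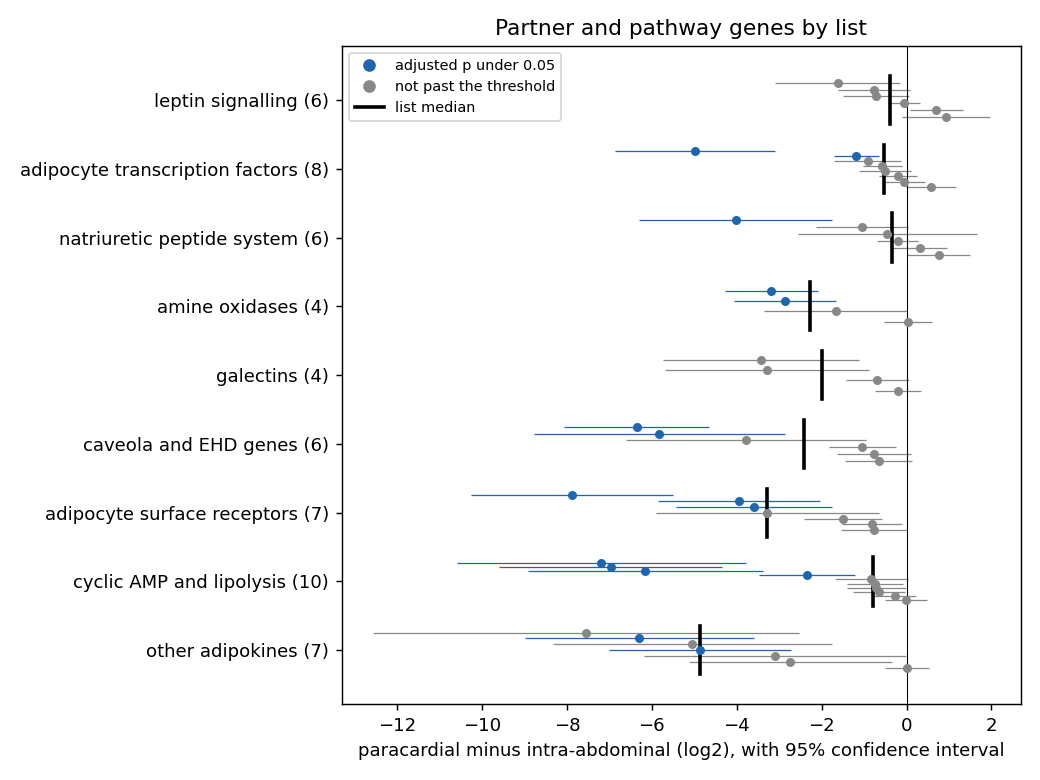
Difference between paracardial and intra-abdominal fat in log2 units (horizontal axis) with its 95% confidence interval for each measured gene of the 9 lists, blue where the limma adjusted p is under 0.05 and grey otherwise, with list medians as black bars. All blue points lie below 0, and the leptin signalling and galectin lists hold none.

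Among genes of leptin signalling, none of 6 measured genes passed, with a median difference of -0.40. That median was -0.75 with the dimmest 50% of genes dropped and -0.20 without intra-abdominal array 3. The receptor gene Lepr differed by -0.06 (95% confidence interval -0.45 to 0.32, limma adjusted p = 0.848), with values of 4.86, 5.07, 5.10 and 5.10 in paracardial fat and 5.10 on every intra-abdominal array. The same value, compared to 9 decimals, stood on 5 arrays. Of all genes, 55 had 1 value on 5 or more arrays, so the probe says little about the receptor. The largest difference belonged to Pik3r1, a regulatory subunit of the kinase below the insulin and leptin receptors (-1.62 ± 0.62, difference ± SE, adjusted p = 0.165). It passed after quantile normalization was applied again (0.018) and after cyclic loess (0.028). Jak2, Stat3 and Socs3 were not analysed here.

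Among factors that drive fat cell genes, Pparg and Mlxipl were lower and 6 of 8 measured genes did not pass, with a median of -0.54 (-0.20 with the dimmest 50% of genes dropped). Pparg, the master regulator of fat cell formation, had values of 6.14, 6.51, 7.91 and 8.07 in paracardial fat and of 10.64, 12.35 and 13.43 in intra-abdominal fat. The depots did not overlap, and the difference was -4.98 ± 0.79 (SE, limma adjusted p = 0.018). Mlxipl, the carbohydrate response factor, differed by -1.19 ± 0.22 (adjusted p = 0.024). Of the C/EBP genes, Cebpb differed by -0.06 ± 0.21 (adjusted p = 0.902) and Cebpd by -0.91 ± 0.33 (0.149), and Cebpa was not analysed here. The call of Pparg ended without intra-abdominal array 2 (adjusted p = 0.076) or paracardial array 1 or 2 (0.056 and 0.052). That of Mlxipl ended without the same 3 arrays (0.104, 0.076 and 0.068) and without intra-abdominal array 1 (0.062).

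In the natriuretic peptide system, 1 of 6 measured genes beside Npr3 was lower. It was Pde2a, a phosphodiesterase that cyclic GMP activates, with values of 6.35, 6.31, 6.78 and 7.83 in paracardial fat and of 9.08, 10.31 and 13.13 in intra-abdominal fat. Intra-abdominal array 3 was the high one, and the difference was -4.02 ± 0.95 (SE, limma adjusted p = 0.048). It did not pass without paracardial arrays 1 to 4 in turn (adjusted p = 0.126, 0.121, 0.111 and 0.071) or without intra-abdominal array 2 (0.134). Gucy1b1, a subunit of the soluble guanylate cyclase, differed by -1.05 ± 0.45 (adjusted p = 0.217), and the cyclic GMP phosphodiesterase genes Pde5a and Pde9a by 0.31 ± 0.27 (0.542) and -0.21 ± 0.20 (0.572). The list's median was -0.33, turned to 0.09 without intra-abdominal array 3 and reached -0.68 after quantile normalization was applied again. The ligand genes Nppa, Nppb and Nppc and the receptor genes Npr1 and Npr2 were not analysed here.

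Among amine oxidases, Maob and Loxl1 were lower and 2 of 4 measured genes did not pass, with a median of -2.27. Maob, a mitochondrial monoamine oxidase, had values of 5.45, 5.57, 6.33 and 6.41 in paracardial fat and of 8.40, 8.91 and 10.05 in intra-abdominal fat (difference -3.18 ± 0.46, limma adjusted p = 0.014). Loxl1, which cross-links elastin, differed by -2.87 ± 0.50 (adjusted p = 0.021), and Maoa by -1.67 ± 0.71 (0.210). Aoc2, the close paralog of Aoc3 and its neighbour on the chromosome, gave no such difference. Its values were 5.55, 5.73, 5.92 and 5.11 in paracardial fat and 5.63, 5.56 and 5.42 in intra-abdominal fat, so the depots overlapped. The difference of Aoc2 was 0.04 with a 95% confidence interval of -0.52 to 0.60 (adjusted p = 0.939), where Aoc3 differed by -9.40. On every array Aoc2 lay below the median over all probes (5.99 to 6.37), so its probe says little about a depot difference. The calls of Maob and Loxl1 ended without intra-abdominal array 2 (adjusted p = 0.056 and 0.065) or paracardial array 1 (0.052 and 0.058), and that of Loxl1 also without paracardial array 2 (0.062).

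The genes next to the members in the RefSeq annotation were looked up after the values were seen. Beside Aoc2, the adjacent protein-coding genes with a value were G6pc after Aoc3, Tars before Npr3 and Nop53 before Ehd2. G6pc, a glucose-releasing phosphatase, differed by -0.95 ± 0.73 (limma adjusted p = 0.495), Tars, a threonyl-tRNA synthetase, by 0.60 ± 0.49 (0.516), and Nop53, a ribosome assembly factor, by 0.75 ± 0.50 (0.432). None of the 4 neighbours passed. Aoc2 lay below the median over all probes on every array, as did G6pc except on intra-abdominal array 1, so both say little here.

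Among 3 galectins and the galectin-binding protein gene Lgals3bp, none of these 4 measured genes passed, with a median of -1.99. That median was -3.29, the difference of Lgals3bp, with the dimmest 25% or 50% of genes dropped, which took out Lgals2. It was -1.31 when intra-abdominal array 3 was left out and -1.24 when paracardial arrays 1 and 2 both were. Lgals3bp differed by -3.29 ± 1.01 (SE, limma adjusted p = 0.098) and Lgals2 by -0.21 ± 0.23 (0.630). Galectin-1 (Lgals1), found in many cell types, had values of 12.13, 12.16, 14.94 and 14.99 in paracardial fat and of 15.81, 17.10 and 18.04 in intra-abdominal fat. The depots did not overlap, and the difference was -3.43 ± 0.97 (SE, limma adjusted p = 0.078), which passed after quantile normalization was applied again (0.042), after median centring (0.046), after cyclic loess (0.049) and when the array set was a block in the fit (0.046). Lgals3, a galectin of macrophages, differed by -0.68 ± 0.31 (adjusted p = 0.242). Vps13c, a partner of galectin-12, was not analysed here.

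Among caveola and EHD genes, Cav2 and Cavin2 were lower and 4 of 6 measured genes did not pass, with a median of -2.41. That median was -3.78 with the dimmest 50% of genes dropped by their mean over both depots, a filter that keeps genes high in 1 depot. It was -1.46 when intra-abdominal array 3 was left out, and -1.52 when both arrays of the higher ceiling were. Cav2, which builds the caveolar coat together with Cav1, had values of 5.64, 6.02, 7.07 and 7.75 in paracardial fat and of 11.86, 12.85 and 14.22 in intra-abdominal fat. Its difference was -6.36 ± 0.72 (SE, limma adjusted p = 0.0086), and it passed whichever array was left out. Cavin2, a coat protein that shapes caveolae, had values of 5.19, 5.17, 7.24 and 7.99 against 10.30, 11.52 and 14.85 (difference -5.83 ± 1.24, adjusted p = 0.035). The low paracardial arrays were again 1 and 2. The paralog Ehd1, which acts in endosomal recycling, differed by -1.04 ± 0.33 (adjusted p = 0.105) and the membrane-bending partner Pacsin2 by -0.66 ± 0.33 (0.293). The call of Cavin2 ended without any of paracardial arrays 1 to 4 (adjusted p = 0.099, 0.092, 0.073 and 0.051) or intra-abdominal array 2 (0.106). Of 5 endothelial markers 2 were lower, with differences of -7.05 to -1.81, and the part of endothelial cells in the caveola genes was not tested. Cav1, Cavin1, Ehd3 and Ehd4 were not analysed here.

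Among other receptors of the fat cell surface, Tshr, Sucnr1 and Klb were lower and 4 of 7 measured genes did not pass, with a median of -3.28. Tshr, the thyrotropin receptor, had values of 4.78, 4.91, 6.77 and 7.82 in paracardial fat and of 12.44, 13.95 and 15.47 in intra-abdominal fat (difference -7.88 ± 1.00, limma adjusted p = 0.011). It passed whichever array was left out. The succinate receptor Sucnr1 differed by -3.95 ± 0.80 (adjusted p = 0.030) and Klb, the coreceptor of the hormone FGF21, by -3.59 ± 0.77 (0.036). Without intra-abdominal array 2 these 2 gave adjusted p = 0.125 and 0.093, and without paracardial arrays 1, 2 and 3 in turn 0.074, 0.084 and 0.066 for Sucnr1 and 0.103, 0.097 and 0.085 for Klb. Sucnr1 also missed the threshold without intra-abdominal array 3 (0.078) and Klb without paracardial array 4 (0.062). The beta-adrenergic receptor gene Adrb3 was not analysed here.

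Among genes of cyclic AMP signalling and lipolysis, which galectin-12 and the natriuretic peptides both bear on, 4 of 10 measured genes were lower and 6 did not pass, with a median of -0.78. With the dimmest 50% of genes dropped 5 genes were left, with a median of -6.15. That filter used the mean over both depots and so kept genes high in 1 of them, and nothing is read from the shift. Without intra-abdominal array 3 the median of the 10 was -0.51. The triglyceride lipase gene Pnpla2 differed by -7.19 ± 1.43 (limma adjusted p = 0.029), the droplet coat gene Plin1 by -6.97 ± 1.10 (0.018), the protein kinase A subunit Prkar2b by -6.15 ± 1.16 (0.025) and the adenylate cyclase Adcy5 by -2.34 ± 0.47 (0.030). Pnpla2 and Plin1 are also among the adipocyte markers. The other cyclases were Adcy3 (-0.02), Adcy4 (-0.72), Adcy6 (-0.83) and Adcy9 (-0.28), none of which passed. Without intra-abdominal array 2 all 4 calls ended (adjusted p = 0.114, 0.067, 0.088 and 0.105), as they did without paracardial array 1 (0.072, 0.052, 0.071 and 0.084). Without paracardial array 2 those of Pnpla2 (0.066), Prkar2b (0.066) and Adcy5 (0.080) ended, and without array 3 those of Prkar2b (0.053) and Adcy5 (0.077). Pnpla2 and Prkar2b also missed the threshold without intra-abdominal array 3 (0.068 and 0.052), Pnpla2 without intra-abdominal array 1 (0.066) and Adcy5 without paracardial array 4 (0.069).

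Among other secreted factors of fat, Rbp4 and Angptl4 were lower and 5 of 7 measured genes did not pass, with a median of -4.87 (-3.18 without paracardial arrays 1 and 2). Rbp4, the retinol carrier, had values of 6.39, 6.76, 8.50 and 8.49 in paracardial fat and of 11.29, 14.43 and 15.78 in intra-abdominal fat (difference -6.30 ± 1.13, limma adjusted p = 0.022). Angptl4, an inhibitor of lipoprotein lipase, differed by -4.87 ± 0.90 (adjusted p = 0.024). Adipoq (-5.04 ± 1.38, adjusted p = 0.072) and resistin, Retn (-7.56 ± 2.10, 0.076), had large differences that did not pass. The visfatin gene Nampt differed by 0.01 ± 0.22 (adjusted p = 0.988). Both calls ended without intra-abdominal array 2 (adjusted p = 0.095 and 0.081) and without paracardial arrays 1, 2 and 3 in turn (0.068, 0.065 and 0.051 for Rbp4, and 0.075, 0.069 and 0.062 for Angptl4).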

How the data were processed

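Total RNA of mouse fat was hybridised to 7 Affymetrix arrays. For every probe and array the authors deposited 1 log2 value. The submitters' processing notes name RMA and Affymetrix Expression Console, without versions or a build. The log2 unit is read from the range of values, and scale, centring and the cause of the ceiling stay unknown. Signal over background is also unknown, since scanner files were not used here, and precision rests on 4 and 3 arrays.

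Of 11949 probes, 9352 had 1 gene symbol in the platform annotation, 522 several and 2075 none. Entrez identifiers of 5789 probes matched the RefSeq table (GRCm38.p6, names only), which changed 188 symbols. The highest-mean probe was kept for 52 genes with several, leaving 9294 genes and no filter on low signal. Array medians over all probes were 5.99 to 6.37. All genes were fitted with lmFit and eBayes of limma 3.58.1 (R 4.3.3, two-sided, no covariate, 5 residual and 1.68 prior degrees of freedom), with Benjamini-Hochberg adjustment over all genes, a threshold of 0.05 and 95% confidence intervals. The fit was tested on simulated data. Python 3.11.15 with pandas 2.3.3, numpy 2.4.6 and matplotlib 3.10.9 did the rest.

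The members and all lists were chosen with earlier results of these data known. The text names the members, fixed partner genes, up to 4 genes of each list past the threshold with the largest difference (otherwise the 1 largest), the 3 genes most like each member, and the 5 other genes with the lowest differences. Other list genes, marker genes and adjacent genes were named after their values were seen. Alternatives were filters dropping the dimmest 25% or 50% of genes, quantile normalization again, median centring, cyclic loess, trend with robust fitting, a block for the replicate number or for the array set, the 5 arrays of the lower ceiling alone, the mean over probes, and each array left out. Leaving out paracardial arrays 1 and 2 together was added after the data were seen.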

Additional observations from a re-analysis of the deposited data

Results flagged for a closer look

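In paracardial fat, the 4 arrays of 34 named genes and of the 5 members were examined for 1 array far from the others, a rule that chance meets in about 1 of 20 groups. None of the 5 members met it. Lepr was lowest on array 1, at 4.86 against 5.07, 5.10 and 5.10 on the other arrays, a gap of 0.900 of the range. Tars, the gene before Npr3, was highest on array 4, at 10.40 against 8.87, 8.78 and 8.78, a gap of 0.946 of the range.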

How the results depend on the processing

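The differences of the 5 members were negative in all 18 alternatives, which the lack of overlap fixes for those that leave out arrays or fit a block. The filters on dim genes, trend with robust fitting and the mean over probes cannot change a member's difference, as each member had 1 probe. The sign was thus not put to a test in those settings. The differences moved by more than the spread between arrays only without paracardial arrays 1 and 2, to -7.92 for Aoc3 and -7.31 for Lgals12. In that setting Ehd2 moved farther, to -6.89, but stayed within its own larger spread of 1.68. Leaving out 1 array gave -9.30 to -8.04 for Lep, -9.91 to -8.87 for Aoc3, -9.34 to -8.23 for Npr3, -9.22 to -8.18 for Lgals12 and -9.37 to -7.93 for Ehd2. Without 1 array, 114 to 569 genes of all were higher, 62 to 274 lower, and 2 to 18 pathway genes lower. Genes called lower rose to 474 after quantile normalization was applied again and to 571 after cyclic loess, which called 26 pathway genes lower. The array set as a block gave 1081 higher and 573 lower genes of all, with 2 pathway genes higher and 21 lower. Without paracardial arrays 1 and 2, 0 genes were higher, 1 was lower and 0 pathway genes were lower by limma, with 1751 genes at an unadjusted p under 0.05. The cause of these shifts was not tested. With the replicate number as a block, 0 genes of all were higher, 0 were lower and 0 pathway genes were lower by limma, with 2134 at an unadjusted p under 0.05. The 23 named genes called in the main fit then had limma adjusted p from 0.0505, as for Cav2 and Tshr, to 0.134 for Mlxipl. In that fit paracardial array 4 has no partner and adds nothing to the difference. Arrays of the same number did not deviate together (r of 0.048, 0.047 and -0.500 across genes), and pairs of different number gave -0.379 to 0.490. With so few arrays this cannot show whether samples of the same number came from the same animal, which the labels do not state. Within the 5 arrays of the lower ceiling the calls of Loxl1 (adjusted p = 0.0502), Sucnr1 (0.063), Pnpla2 (0.053) and Rbp4 (0.063) ended. Among the 34 named genes, beside Lgals1, a call was gained by Pik3r1 (limma adjusted p = 0.018) after quantile normalization. After cyclic loess Pik3r1 (0.028) and Pacsin2 (0.030) gained a call, and without intra-abdominal array 1 Ehd1 (0.0499) did. Other list genes also gained calls, such as Ptger3, Hcar2 and Ffar4 without intra-abdominal array 1 and Cavin3 and Sfrp5 without intra-abdominal array 3.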
